A study of Mus musculus with 15 samples.

Results

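The miR-125, miR-99 and miR-100 family was read with 11 of the 584 miRNA assays of the series. Members were taken by name, as every assay for miR-125a, miR-125b, miR-99a, miR-99b or miR-100 of either arm, 7 on card A and 4 on card B of a pair of TaqMan low density arrays. Of these, 2 are assays for the rat sequence. The arrays were run on 15 samples, 3 replicates of each of 5 conditions, which the methods describe as independent biological replicates. αTC1-6 is a mouse glucagonoma line and βTC1 a mouse insulinoma line, so each stands for its cell type through a single tumour-derived line. The conditions were untreated αTC1-6 at 24 h and at 48 h, αTC1-6 given a cocktail of IL-1β (50 IU/ml), IFN-γ (1000 IU/ml) and TNF-α (1000 IU/ml) for 24 h or 48 h, and untreated βTC1 at 24 h. No cytokine-treated βTC1 and no βTC1 of 48 h were analysed here. Each well gives a threshold cycle (Ct), and ΔCt is that Ct less the one measured for miR-26a on the same RNA, so that a lower ΔCt stands for more miRNA and 1 cycle equals 1 log2 unit.

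A miRNA pairs with its target mRNAs mainly through its seed, bases 2 to 8, and lowers their translation and stability. MiR-125 is the mammalian counterpart of lin-4, the founding miRNA of nematode development, and miR-99 and miR-100 share a seed of their own. In mammals the genes of both groups lie with let-7 genes in paralogous clusters, and miR-125b is known for roles in differentiation, cell survival and inflammatory signalling.

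The mature sequences of the main arms are printed to show which members share a seed, written in capitals. All are taken from RefSeq (GRCm38.p6), 5′ to 3′.
miR-125a-5p: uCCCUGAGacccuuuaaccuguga
miR-125b-5p: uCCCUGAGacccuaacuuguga
miR-351-5p: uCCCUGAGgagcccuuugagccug
miR-99a-5p: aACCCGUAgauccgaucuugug
miR-99b-5p: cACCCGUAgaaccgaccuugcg
miR-100-5p: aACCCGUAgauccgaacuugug
MiR-351, which is no member, is shown because it has the miR-125 seed. From the 5′ end, miR-125a-5p and miR-125b-5p are identical over 13 bases. MiR-99a-5p and miR-100-5p have 22 bases each and differ by U16A alone, counted from 1 at the 5′ end of miR-99a-5p, and miR-99b-5p differs from miR-99a-5p at 4 positions.

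The passenger arms do not share the seeds of the main arms, as the arms with a RefSeq entry show.
miR-125a-3p: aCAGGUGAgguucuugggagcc
miR-99b-3p: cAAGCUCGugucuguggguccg
miR-125b-1-3p: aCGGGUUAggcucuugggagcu
miR-125b-2-3p: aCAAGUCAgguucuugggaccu
The star in an assay name is the older sign for the passenger arm. The assays named miR-125b-3p and miR-125b* do not say which of the last 2 sequences they read, so their values were not assigned to a gene.

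In GRCm38.p6 the genes lie in 3 clusters, all on the plus strand. Mir100 (chr9:41531425-41531504), Mirlet7a-2 and Mir125b-1 (chr9:41581926-41582002) span 50.6 kb inside the long non-coding RNA gene Mir100hg. Mir99a (chr16:77598936-77599000), Mirlet7c-1 and Mir125b-2 (chr16:77646273-77646343) span 47.4 kb. Mir99b (chr17:17830188-17830257), Mirlet7e and Mir125a (chr17:17830812-17830879) lie within 692 bases. Mir125b-1 and Mir125b-2 give the same mature miR-125b-5p, so its assay cannot tell the chromosome 9 gene from the chromosome 16 gene.

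The members differed in how often they were detected. MiR-125b-5p and miR-125a-3p had a Ct in all 15 samples, and miR-125a-5p and miR-99b in each of the 14 samples whose well was not blank. MiR-99b* and rno-miR-99a* on card B had a Ct in all 15 samples too. In the normalized table mmu-miR-99a had a Ct in 1 sample, mmu-miR-100 in 2 and miR-125b-3p in 1, so these 3 did not pass the filter of a Ct in at least 3 of the 6 samples compared. The other 8 members were tested in each comparison. Of the 180 member wells, 133 had a Ct, 41 were undetermined and 6 were blank.

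The main-arm assays of the chromosome 17 members were below miR-26a in level, by at most 3.27 cycles, in every sample with a value. The assay mmu-miR-99b had a ΔCt between 0.964 and 2.29 over its 14 samples, and mmu-miR-125a-5p one between 1.43 and 3.27. MiR-125b-5p lay between 6.57 and 11.9. The order of these 3 is one of ΔCt only, since amplification efficiencies of the assays are not given in the sources used here. Let-7e, the third gene of the chromosome 17 cluster, had a ΔCt between -1.02 and 2.25.

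At steady state, mmu-miR-125b-5p was lower in αTC1-6 than in βTC1. Its ΔCt was 10.97, 10.41 and 10.97 in untreated αTC1-6 at 24 h, and 6.57, 6.72 and 7.79 in βTC1. Every βTC1 sample was therefore more than 2 cycles above every αTC1-6 sample in level. The log2 difference, αTC1-6 minus βTC1, was -3.76 (SE 0.494, 95% interval -4.96 to -2.55, n = 3 per line), 13.5-fold lower, with an adjusted p = 0.00103 (limma, Benjamini-Hochberg within the card). The exact permutation test gave p = 0.1, the smallest that 3 against 3 samples allow. Over all 480 assays tested, 30.2% passed the threshold in this comparison, 18.3% with αTC1-6 lower, and in 28.5% every αTC1-6 sample was below every βTC1 sample. The median log2 difference of all assays was -0.52, and that of the 8 members 0.03.

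None of the other 7 members tested passed the threshold at steady state. MiR-125a-5p had a ΔCt of 2.02, 1.43 and 2.86 in αTC1-6 and of 2.59, 2.24 and 3.03 in βTC1, and the lines overlapped. Its log2 difference was 0.52 (SE 0.523, 95% interval -0.76 to 1.79, adjusted p = 0.484), and the interval includes a change of 1 cycle. MiR-99b gave 0.33 (SE 0.470, 95% interval -0.82 to 1.48). This member passed only when each card was centred on its median, where the difference was 0.92 (SE 0.237, adjusted p = 0.0222). MiR-125a-3p gave 0.51 and miR-99b* 0.42, both with overlapping lines. The rat assays gave -0.27 for rno-miR-99a* and -0.56 for rno-miR-125b*, the latter over 4 samples.

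Markers of another cell type moved with this comparison. The exocrine pancreas miRNAs miR-216a, miR-216b and miR-217 had a Ct in all βTC1 samples, 3 of 3 markers, with a summed quantity relative to miR-26a between 0.0261 and 0.0979, and 0 of 3 had one in untreated αTC1-6 at 24 h in the normalized table. Before normalization each of the 3 had a Ct in 1 of those αTC1-6 samples. The islet markers miR-375, miR-7a and miR-7b had a Ct in every sample of both groups whose well was not blank. Their summed quantity was 17.4 to 21.9 in βTC1 and 6.55 to 16.7 in those αTC1-6. In this sum miR-375 weighs most, with a Ct of 13.42 to 14.58 in βTC1 and 14.85 to 14.94 in those αTC1-6. By Ct the other islet markers went the other way. MiR-7a had 20.96 to 22.97 in βTC1 against 19.98 to 20.96, and miR-7b 21.58 to 22.95 against 21.01 to 21.53. Blood markers summed to 0.00101 to 0.00223 in those αTC1-6 and 0.000862 to 0.00302 in βTC1, mesenchymal ones to 0.000433 to 0.00123 and 0.00129 to 0.00171, and miR-122 of liver had no Ct in those αTC1-6, where it had one in 3 of 3 before normalization, and one in 2 of 3 βTC1 samples (0 to 0.000597). Before normalization the mesenchymal miR-143 and miR-214 had a Ct in 3 of 3 samples of both groups, against 0 of 3 in the normalized table. MiR-142-5p of blood had one in 3 of 3 of both groups, against 1 of 3, and miR-122 in 3 of 3 βTC1 samples. The sums leave out the removed values. The part of these lists in the difference of miR-125b-5p was not tested.

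**Figure D1:**
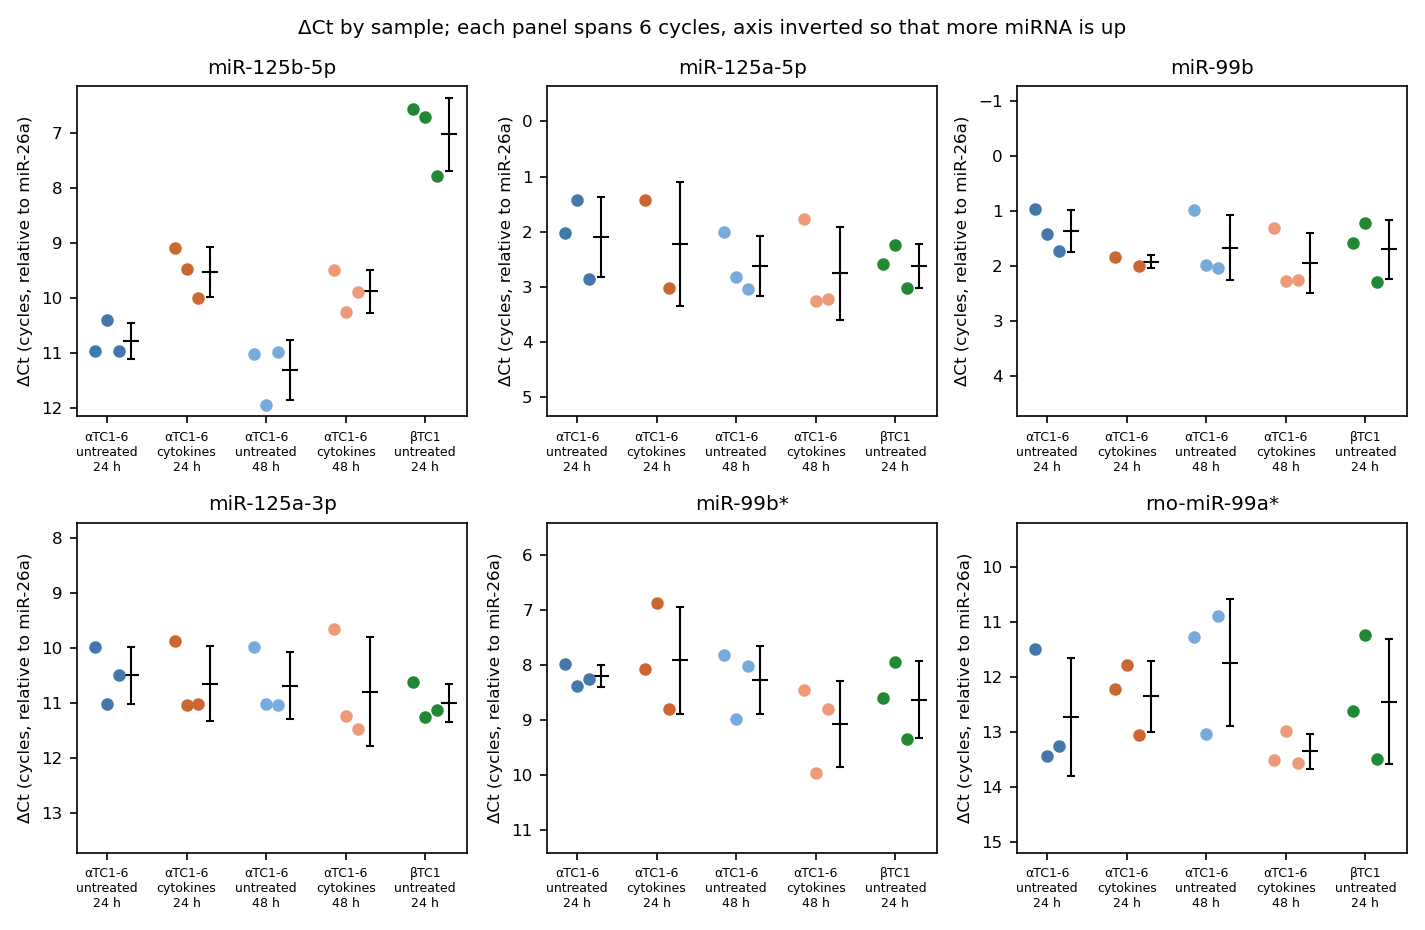
ΔCt in cycles, relative to miR-26a, of 6 members in every sample with a value; points are samples, black bars the mean and SD of each condition, and each panel spans 6 cycles with more miRNA upwards. In the panel of miR-125b-5p the 3 βTC1 samples (6.57 to 7.79) sit above all αTC1-6 samples and the treated αTC1-6 samples sit above the untreated ones of their time point, while the conditions overlap in the panels of miR-125a-5p, miR-125a-3p, miR-99b* and rno-miR-99a*.

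In αTC1-6 given cytokines, miR-125b-5p was above the untreated cells in every sample at both time points, but passed the threshold at neither. At 24 h its ΔCt was 9.10, 9.48 and 10.01 in treated cells against 10.97, 10.41 and 10.97 in untreated ones. The log2 difference, treated minus untreated, was 1.25 (SE 0.362, 95% interval 0.35 to 2.16), 2.38-fold, with an adjusted p = 0.440 by limma. In this comparison 1 of 445 assays passed (0.225%). Its p was under 0.05 before adjustment, which with the treated cells higher held for 2.25% of all assays. At 48 h the ΔCt was 9.49, 10.26 and 9.90 in treated cells and 11.01, 11.94 and 10.98 in untreated ones. The log2 difference was 1.43 (SE 0.406, 95% interval 0.39 to 2.47), 2.69-fold, with an adjusted p = 0.385 by limma. At 48 h 0.562% of 534 assays passed, and before adjustment 1.69% were higher in treated cells with a p under 0.05, miR-125b-5p included. The treated samples of 2.06% of all assays were above the untreated ones without overlap, against 6.07% at 24 h.

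Over the 440 assays tested at both time points, 5 (1.14%) had all treated samples above all untreated ones at 24 h and again at 48 h. These were miR-125b-5p, miR-146a, miR-203, miR-222 and miR-34a, a list chosen by this property. The cytokine effects on miR-125b-5p at the 2 time points differed by 0.18 (48 h minus 24 h, SE 0.536, 95% interval -1.02 to 1.38, adjusted p = 0.991 by limma), an interval that does not exclude a difference of 1 cycle. In this test of the difference 0.21% of 477 assays passed and none of the 8 members did, with an unadjusted p under 0.05 in 0 members and in 3.35% of all assays.

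A fit of the mean cytokine effect over the 12 αTC1-6 samples, with time point as a term, was added after the values at each time point had been seen. In it miR-125b-5p rose by 1.34 on the log2 scale (SE 0.254, 95% interval 0.78 to 1.90, adjusted p = 0.0180 by limma), 2.53-fold. Over all assays 1.68% of 477 passed, 0.839% in each direction, and miR-125b-5p was the only one of 8 members tested. With each time point and replicate number as a block its adjusted p was 0.00707, and 42 rather than 8 assays passed. The call was lost with Ct values left without normalization, where the log2 difference was 1.29 (SE 0.367, adjusted p = 0.243). As the fit followed from the data it was made on, it does not count as independent of the values above.

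None of the other 7 members tested passed the threshold with cytokines. At 24 h their log2 differences ran from -0.55 for miR-99b to 2.54 for miR-125b*, and at 48 h from -1.61 for rno-miR-99a* to 1.79 for rno-miR-125b*. Some of the intervals are wide, such as -3.90 to 8.98 for miR-125b* at 24 h and -3.34 to 0.11 for rno-miR-99a* at 48 h. MiR-99b had a ΔCt of 0.964, 1.41 and 1.73 in untreated cells at 24 h and of 1.84 and 2.00 in the 2 treated samples with a value. The lowest untreated level was thus above the highest treated one, as in 7.19% of all assays at 24 h, with an adjusted p = 0.940 by limma. This separation rests on the blank well of treated replicate 1. The non-normalized table gives that well a ΔCt of 0.307, a higher level than in any untreated sample of 24 h. With that table the log2 difference of miR-99b was -0.014. The assay rno-miR-125b* was above the untreated samples without overlap at 24 h (1.43, SE 0.999, 5 samples, adjusted p = 0.987 by limma), as in 6.07% of all assays. Its untreated replicate 1 was blank, and the non-normalized table gives that well a ΔCt of 10.8. In that table treated replicates 1 and 2 had 9.38 and 12.3, so the groups overlapped. At 48 h the groups of rno-miR-125b* overlapped in the normalized table too. At 48 h the groups of miR-99b overlapped, with a log2 difference of -0.28 (95% interval -1.48 to 0.93). MiR-125a-5p gave -0.13 at 24 h over 5 samples (95% interval -2.03 to 1.78) and -0.14 at 48 h (95% interval -1.58 to 1.31). The median over all assays was -0.15 at 24 h and -0.51 at 48 h, against 0.33 and -0.12 for the 8 members.

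**Figure D2:**
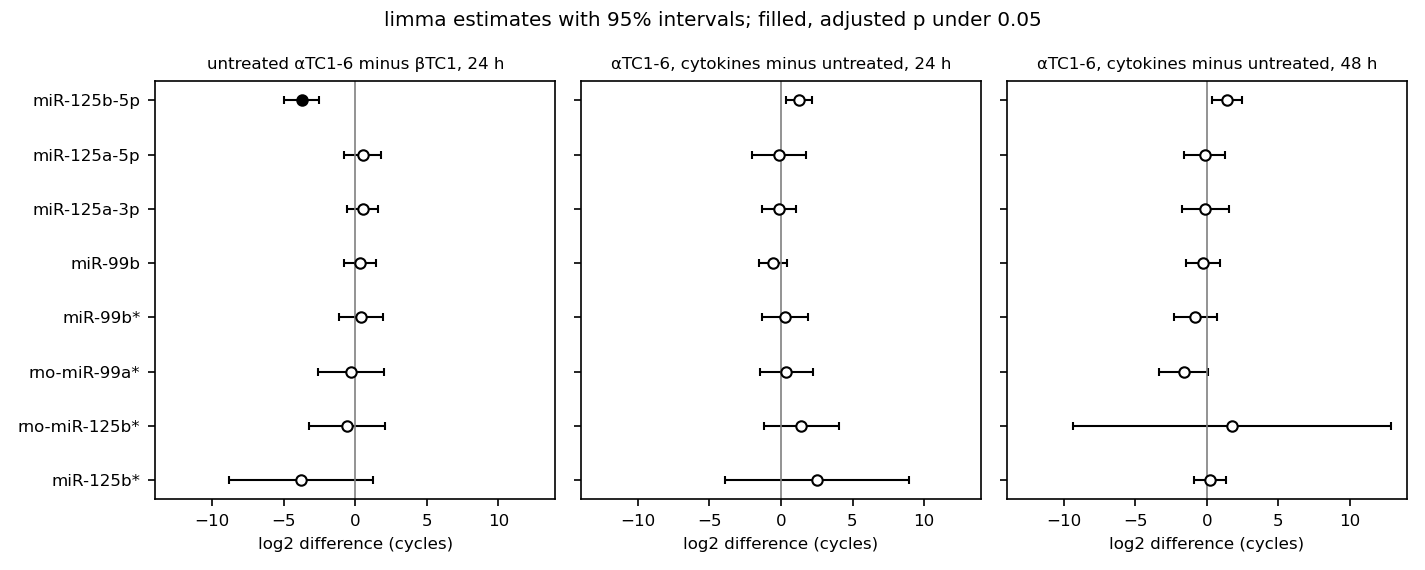
Log2 differences of the 8 members tested, with 95% intervals from limma, for αTC1-6 minus βTC1 and for cytokines minus untreated at 24 h and 48 h; filled points have an adjusted p under 0.05. The only filled point is miR-125b-5p at steady state (-3.76), and its intervals under cytokines lie above 0 at both time points.

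In time in culture 0 of the 8 members passed. Untreated αTC1-6 of 48 h had a miR-125b-5p ΔCt of 11.01, 11.94 and 10.98 against 10.97, 10.41 and 10.97 at 24 h. The log2 difference was -0.53 (SE 0.401, adjusted p = 0.876 by limma), with no overlap by a margin of 0.014 cycles at its narrowest. In this comparison 5.73% of 489 assays passed, and in 3.89% every sample of 48 h was below every sample of 24 h. The untreated samples of 24 h are the same as in the steady-state and 24 h cytokine comparisons. Ordered by level, miR-125b-5p was highest in βTC1, then in treated αTC1-6 of 24 h and of 48 h, then in untreated αTC1-6 of 24 h and of 48 h. Only the 2 treated conditions overlapped as neighbours in that order. For miR-125a-5p, miR-99b, miR-125a-3p, miR-99b* and rno-miR-99a* every pair of neighbouring conditions overlapped.

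Setting members of the same sample against each other takes miR-26a out of the comparison. MiR-99b*, miR-125b* and rno-miR-125b* are read on card B and their partners on card A. A difference between the cards therefore stays in these pairs. MiR-26a, the reference for both cards, is read on card A. MiR-125b-5p reached its Ct after miR-125a-5p, its partner in seed, in every sample with both values. The difference, in log2 units with negative values for less miR-125b-5p, was -8.68 ± 0.497 (SD, n = 3) in untreated αTC1-6 at 24 h and -4.41 ± 0.389 in βTC1. It was -7.52 ± 0.750 in treated αTC1-6 at 24 h (n = 2), and at 48 h -8.69 ± 0.644 in untreated and -7.12 ± 0.529 in treated cells. The change of miR-125b-5p relative to miR-125a-5p was thus -4.27 for αTC1-6 against βTC1, 1.17 for cytokines at 24 h and 1.57 at 48 h, with no overlap in any of the 3. Exact permutation tests gave p = 0.1, 0.2 and 0.1, and adjusted p = 0.6, 0.72 and 0.6 over the 18 differences between members that could be tested, so none passed and none could have.

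**Figure D3:**
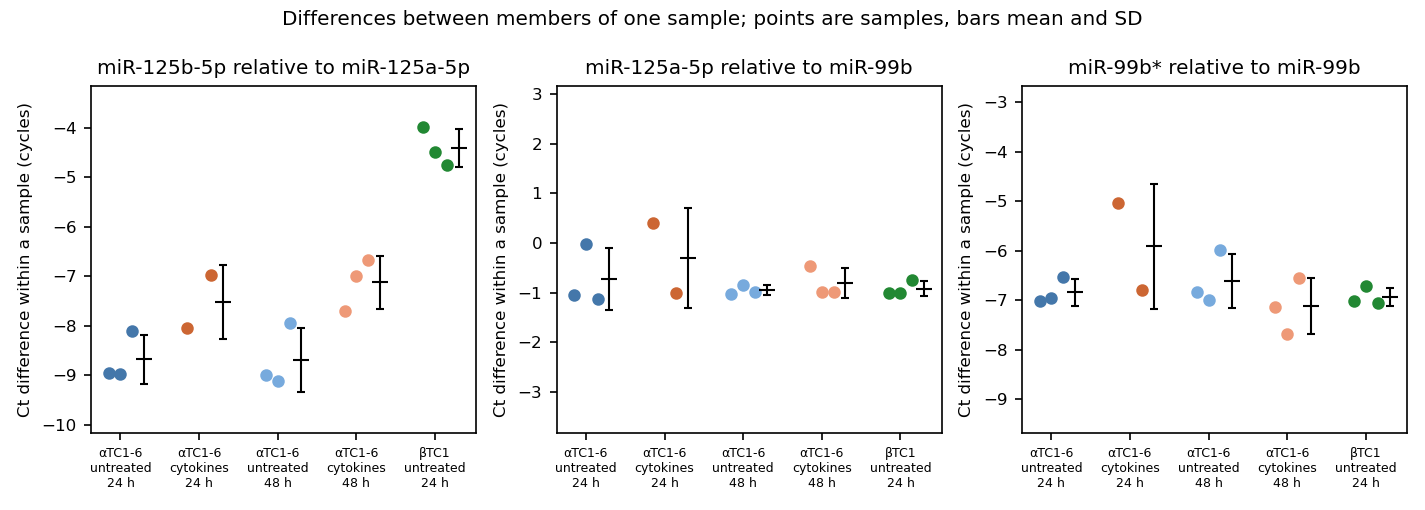
Difference in Ct, in cycles, between members of the same sample for 3 pairs; points are samples, black bars mean and SD, and higher values mean more of the member named first relative to the other. MiR-125b-5p against miR-125a-5p shifts from about -8.68 in untreated αTC1-6 at 24 h to -4.41 in βTC1, whereas miR-125a-5p against miR-99b overlaps between the conditions.

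None of the other pairs passed either. MiR-125a-5p and miR-99b, genes of the same cluster, differed by -0.73 ± 0.626 on that scale in untreated αTC1-6 at 24 h and by -0.92 ± 0.152 in βTC1. The change between lines was 0.19 (exact permutation p = 1). MiR-125a-3p relative to miR-125a-5p was -8.39 ± 1.05 in those αTC1-6 and -8.38 ± 0.554 in βTC1. MiR-99b* relative to miR-99b was -6.84 ± 0.270 in αTC1-6 and -6.93 ± 0.183 in βTC1. These values order the Ct of an arm pair and not its amounts, which would need each assay's efficiency. Under cytokines at 48 h the change of these pairs was 0.14 for miR-125a-5p against miR-99b, 0.03 for miR-125a-3p against miR-125a-5p and -0.52 for miR-99b* against miR-99b, all with overlapping groups. Relative to miR-125b-5p, miR-125b* changed by -0.05 at steady state, 1.29 at 24 h and -1.22 at 48 h, the last without overlap (exact permutation p = 0.1, adjusted p = 0.6). Over the 4 or 5 samples with a Ct, rno-miR-125b* changed by 2.88 at steady state, 0.27 at 24 h and -4.16 at 48 h, the first and the last without overlap (adjusted p = 0.72 for both by exact permutation tests).

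Across samples, the profile of -ΔCt most like that of miR-125b-5p among 273 non-member miRNAs with a Ct in all 15 samples was miR-222 (Pearson's r = 0.92), followed by miR-19b (r = 0.91) and miR-676* (r = 0.88), with a median r of 0.28 over all 273. For miR-125a-5p the nearest were miR-384-3p (r = 0.90), miR-879* and miR-879. For miR-99b they were miR-26b*, miR-30a and miR-150 (r = 0.86 to 0.87), both over 14 samples. Between members, r was 0.72 for miR-125a-5p with miR-99b and 0.03 for miR-125a-5p with miR-125b-5p. These are descriptions over samples of 5 conditions that share the miR-26a value subtracted from every assay.

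MiR-99a and miR-100, the cluster neighbours of the Mir125b genes, were nearly undetected in the normalized table. MiR-99a had a single Ct, 32.8 in treated αTC1-6 of 48 h replicate 2. MiR-100 had a Ct of 26.8 and 27.4 in replicates 1 and 2 of the same condition and was undetermined in every other sample whose well was not blank. No fold is given, because the other samples have no level. The non-normalized table holds more Ct values for both. In βTC1, replicates 2 and 3 had a Ct of 24.3 and 33.6 for miR-99a and of 23.8 and 31.3 for miR-100, and replicate 1 was undetermined. For miR-99a the same table also has 36.9 in untreated αTC1-6 of 24 h replicate 3, and 35.3 and 35.4 in treated cells of 24 h replicates 2 and 3. MiR-125b-3p had a Ct of 32.8 in treated cells of 48 h replicate 3 alone, and the non-normalized table adds 22.1 in treated cells of 24 h replicate 1 and 35.1 in βTC1 replicate 1.

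Such losses were found on both cards. On card B 6 to 17 miRNA wells per sample lost their Ct at 24 h and 8 to 13 did at 48 h. Between 59 and 85 miRNA wells of card A per sample lost their Ct from the non-normalized to the normalized table at 24 h (9 samples), and 0 or 1 did at 48 h (6 samples). Card A miRNAs with a Ct numbered 214 to 276 at 24 h and 304 to 337 at 48 h. The reason is not given in the sources used here, so the time points cannot be compared for members near the limit of detection. The values of miR-125b-5p, miR-125a-3p, miR-99b* and rno-miR-99a* were identical in both tables within 0.01 cycle.

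**Figure D4:**
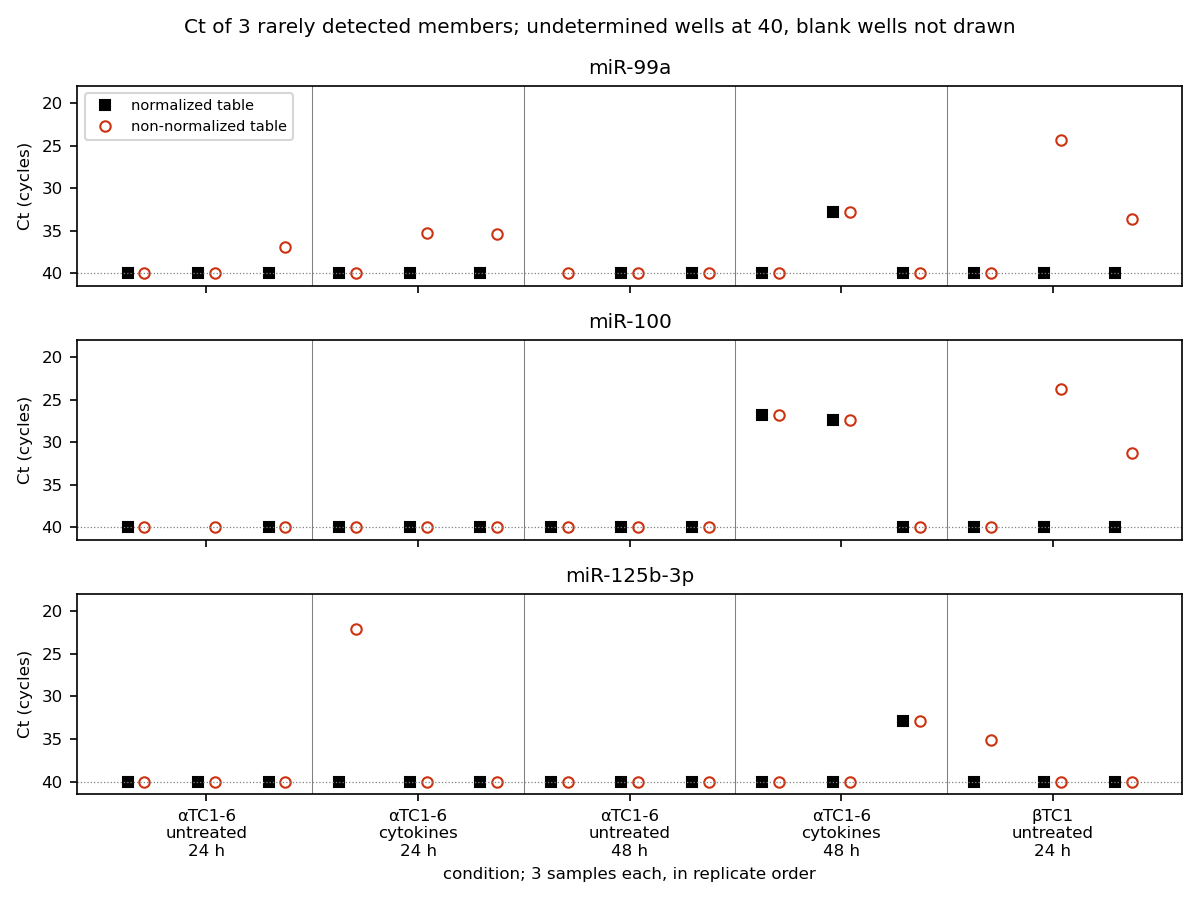
Ct in cycles of miR-99a, miR-100 and miR-125b-3p in each of the 15 samples, with black squares for the normalized and open red circles for the non-normalized table; undetermined wells are drawn at 40. Red circles above the dotted line without a square beside them are Ct values that the normalized table lacks, such as 24.3 for miR-99a and 23.8 for miR-100 in βTC1 replicate 2.

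MiR-125b*, read in 2 wells of card B, differed between its wells by 0.142 to 10.7 cycles, the highest value with an undetermined well at a Ct of 40. In untreated αTC1-6 of 24 h the wells had a ΔCt of 9.34 and 11.9 in replicate 1, the first was undetermined and the second 11.7 in replicate 2, and they were 16.2 and 18.4 in replicate 3. In treated cells of 24 h replicate 3 they were 13.1 and 19.6. All βTC1 pairs were within 0.560 cycles. The averaged log2 difference was -3.81 for αTC1-6 against βTC1 (SE 2.01, 95% interval -8.84 to 1.23, adjusted p = 0.445 by limma). Without untreated αTC1-6 of 24 h replicate 1 it was -5.99 with an adjusted p = 0.0314, and with untreated cells of 48 h as the αTC1-6 group it was 0.40. The steady-state value of this arm therefore rests on the untreated samples of 24 h. In time in culture it passed only without that replicate (6.39, adjusted p = 0.0139). The non-normalized table repeats a single value for both wells.

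**Figure D5:**
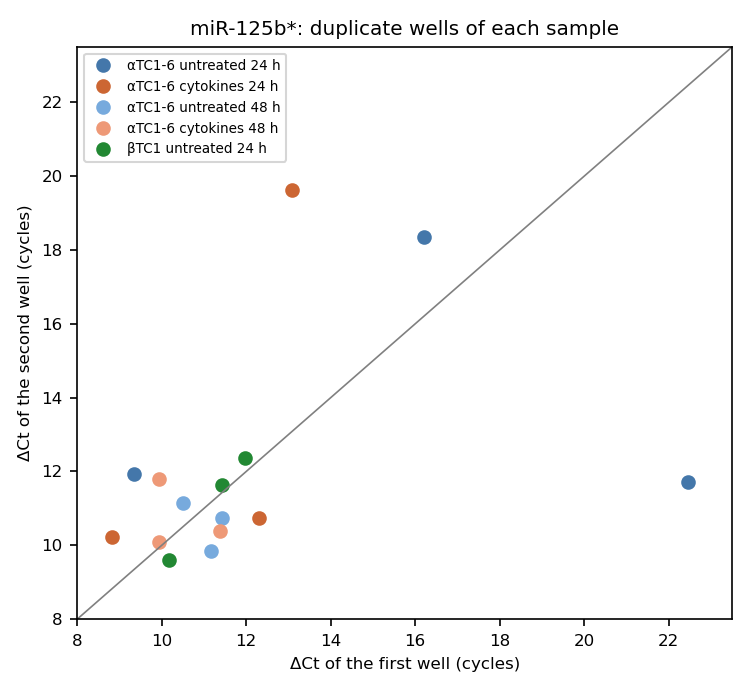
ΔCt in cycles of the first against the second well of miR-125b* in the 15 samples, coloured by condition; the grey line marks equal values. βTC1 samples lie near the line, while the point at the far right is untreated αTC1-6 of 24 h replicate 2, whose first well was undetermined and so plotted at a Ct of 40 minus that of miR-26a, and the topmost point is treated αTC1-6 of 24 h replicate 3 (13.1 and 19.6).

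The rat assay rno-miR-125b* had a Ct in 12 of the 13 samples with a value and varied just as widely. Untreated αTC1-6 of 48 h gave a ΔCt of 9.79 in replicate 1 and 7.29 in replicate 3, with replicate 2 undetermined, and treated cells gave 9.01, 12.17 and 13.56. The log2 difference at 48 h was 1.79 (SE 4.41) with the undetermined well at a Ct of 40 and -3.04 (SE 1.65) with it left out, and neither passed. The other rat assay, rno-miR-99a*, was steadier. Its ΔCt ran from 10.9 to 13.6 over the 15 samples, and the condition means from 11.7 in untreated αTC1-6 of 48 h to 13.3 in treated cells of 48 h. This assay, designed on the rat sequence of the miR-99a passenger arm, thus gave a Ct in every sample. The main arm was read in 1 sample of the normalized and in 6 of the non-normalized table. In mouse the passenger arms of miR-99a and miR-99b share a seed. Pearson's r between rno-miR-99a* and miR-99b* was 0.63 over the 15 samples. Whether the rat assay also reads the passenger arm of miR-99b was not tested.

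The remaining genes of the clusters and the miRNA with the miR-125 seed were read with 8 assays, for let-7a, let-7c, let-7e, their passenger arms and miR-351. At steady state 0 of the 7 tested passed in either direction, against 30.2% of all 480 assays. The nearest was rno-miR-351 (adjusted p just above the threshold by limma), with a ΔCt of 12.1, 10.4 and 12.2 in βTC1. In untreated αTC1-6 of 24 h it was 13.1 in replicate 1, the others being undetermined. In the non-normalized table replicate 1 was undetermined and replicate 3 had a Ct of 10.4, so the tables disagree for those αTC1-6. Let-7c, encoded beside Mir99a and Mir125b-2 and also at a separate locus, gave -1.34 (SE 0.564, adjusted p = 0.103), against -3.76 for miR-125b-5p. Let-7a, encoded beside Mir100 and Mir125b-1 and also at a separate locus, gave -0.52 (SE 0.614, adjusted p = 0.563 by limma). The lines overlapped for both. With cytokines at 24 h 0 of 6 passed, against 0.225% of all assays. At 48 h 1 of 8 passed, where 0.562% of all assays did, and 0 passed with a lower level in treated cells. That assay was mmu-miR-351, with a Ct in all treated samples of 48 h (29.4, 29.5 and 26.9) and in none of the untreated ones, so that no fold is given. Its treated samples alone brought it past the filter, and its untreated wells were set to a Ct of 40. The call rests on these settings and is not read as a rise. Before normalization mmu-miR-351 also had a Ct at 24 h, 27.3 in untreated cells replicate 3 and 27.6 in treated cells replicate 1. Rno-miR-351, the rat assay, gave 0.07 at 48 h (SE 1.16, adjusted p = 0.987). Passenger arms of let-7 were lower in treated cells at 48 h without passing. Rno-let-7e* gave -1.96 and let-7a* -2.17, both without overlap (unadjusted p = 0.0102 and 0.0110, adjusted p = 0.176 for both by limma). Let-7c-1*, with undetermined wells at a Ct of 40, gave -7.54 with overlapping groups (unadjusted p = 0.0393, adjusted p = 0.307 by limma). The median over all assays was -0.51.

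The Ct of miR-26a, the reference behind every ΔCt, averaged 18.07 ± 0.792 in untreated and 18.26 ± 0.529 in treated αTC1-6 at 24 h, 17.97 ± 1.00 and 17.88 ± 0.544 at 48 h, and 18.22 ± 0.617 in βTC1. The precision of single values is limited in a further way. For 10 of the 15 Ct values of miR-125b-5p (66.7%) the decimals lay at 0.9 or above, just under a whole cycle, and the share was 43.7% over all miRNA wells of card A and 28.9% on card B. For miR-99b it was 64.3% and for miR-125a-3p 66.7%. The effect of this clustering on the differences was not tested.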

How the data were processed

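MiRNAs were measured by real-time PCR after reverse transcription and preamplification on TaqMan rodent A and B cards, and data quality was handled by the authors with Real-Time Statminer. The authors deposited Ct values in a non-normalized table, and a normalized table of ΔCt, which are log2 values relative to miR-26a, beside relative quantities, a ratio that the authors made as 2 to the power of -ΔCt. The methods name multiple reference genes, and how they relate to miR-26a could not be determined from the tables. A further deposited table of the authors' own fold changes was not used. Relative quantities computed from ΔCt differed from the deposited ones by over 0.01 in 0 of 11310 values.

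Undetermined wells were set to a Ct of 40, blank wells were left out, and duplicate wells of card B were averaged. Each comparison was fitted on -ΔCt of its own samples over all assays of a card with limma 3.58.1 (R 4.3.3), moderated by eBayes and adjusted within each card by Benjamini-Hochberg, a threshold of 0.05 and a filter of a Ct in 3 of 6 samples (6 of 12 over both time points). Control assays and miR-26a were left out. Tests were two-sided. Exact permutation tests used scipy 1.17.1 in Python 3.11.15. The fits were tested on simulated data. The depth of an array is the number of miRNAs with a Ct, 214 to 337 on card A and 174 to 191 on card B, and 3 replicates per condition limit the precision.

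Samples were grouped by line, treatment and time. All members were named, with the let-7 arms of their clusters, miR-351, miR-26a and cell type markers. For miR-125a-5p, miR-125b-5p and miR-99b the 3 nearest profiles were named as well. Members, lists and tests were chosen with earlier results of these data known. The mean effect over both time points and the single wells of miR-125b* were added after the values were seen. The steady-state, 24 h and time-in-culture comparisons share the untreated αTC1-6 of 24 h.

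Replicate numbers come from the sample titles. Deviations of same-numbered treated and untreated samples from their condition means correlated at 0.337 to 0.539 at 24 h and 0.528 to 0.621 at 48 h, so the numbers pair these samples. At steady state the correlation was 0.0978 to 0.282, against -0.294 to 0.169 for different numbers, so any pairing there is weak. In time in culture it was -0.0273 to 0.0862, and no pairing was seen. The main fits and the exact permutation tests did not use the pairing. Alternatives changed the normalization, the filter, the treatment of undetermined wells and of Ct above 35, the source table, the adjustment and the samples fitted, used the replicate number as a block, or left out each replicate.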

Additional observations from a re-analysis of the deposited data

Results flagged for a closer look

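Signals in a table that the comparisons did not use were found for miR-99a and miR-100 in βTC1. The normalized table gives both as undetermined in all 3 βTC1 samples. The non-normalized table holds a Ct for miR-99a of 24.3 in replicate 2 and 33.6 in replicate 3, and for miR-100 of 23.8 and 31.3 in the same samples. Replicate 1 was undetermined for both, and the replicates with a Ct differed by over 7 cycles. In untreated αTC1-6 of 24 h the same table has 36.9 for miR-99a in replicate 3 and no Ct for miR-100. Why the tables differ was not tested.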

How the results depend on the processing

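The steady-state difference of miR-125b-5p passed the threshold under all 12 alternatives (-4.29 to -3.17) and without each replicate in turn (-4.14 to -3.53). Its cytokine differences at 24 h (1.00 to 1.26) and 48 h (1.43 to 1.87) passed under none of 11. The mean effect over both time points, added later, passed in 10 of 11 alternatives (adjusted p 0.00585 to 0.0330) and without each of the 12 samples (1.19 to 1.46, adjusted p up to 0.0489), and not without normalization (1.29, adjusted p = 0.243), where 0 members passed. At steady state 2 members passed with median centring (miR-99b joined) and between 1 and 2 without each replicate. In time in culture 0 or 1 passed without each replicate. With the replicate block the miR-125b-5p values were -3.76, 1.25, 1.43 and 1.34, and the block changed no call of a member. Over all assays 0 passed with the block at 24 h and at 48 h, against 1 and 3 without it. Median centring moved the median of all assays to 0.01 at steady state, -0.36 at 24 h and 0.19 at 48 h, and U6 with small nucleolar RNAs to -0.81, -0.15 and -0.06.

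Differences that did not pass with the reported settings turned in sign as follows. With median centring they were 0.15 for rno-miR-125b* and 0.23 for rno-miR-99a* at steady state, and 0.31 for miR-125a-5p, 0.17 for miR-99b, 0.33 for miR-125a-3p and 0.44 for miR-99b* with cytokines at 48 h. With U6 and small nucleolar RNAs they were -0.14 for miR-99b at steady state, and 0.20 for miR-125a-5p, 0.056 for miR-99b and 0.22 for miR-125a-3p at 48 h. With 48 h controls at steady state they were -0.0037 for miR-125a-5p, 0.71 for rno-miR-99a* and 0.40 for miR-125b*. With undetermined wells missing, rno-miR-125b* was -3.04 at 48 h, and with the second well alone miR-125b* was -0.18. With the non-normalized table, miR-125a-5p relative to miR-99b was -0.073 at 24 h, and miR-125b* relative to miR-125b-5p was 2.36 at steady state and -0.062 at 24 h. The causes were not tested.

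Without each replicate in turn, the ranges that crossed 0 were as follows. At steady state they were -1.16 to 0.048 for rno-miR-125b*, -0.89 to 0.33 for rno-miR-99a*, -0.39 to 0.59 for miR-125a-3p relative to miR-125a-5p, -0.17 to 0.39 for miR-125a-5p relative to miR-99b, -0.064 to 0.20 for miR-99b* relative to miR-99b and -2.33 to 1.18 for miR-125b* relative to miR-125b-5p. With cytokines at 24 h they were -0.54 to 0.11 for miR-125a-3p, -0.92 to 0.67 for miR-125a-5p, -0.24 to 0.73 for miR-99b* and -0.73 to 1.08 for rno-miR-125b* relative to miR-125b-5p. With cytokines at 48 h they were -0.68 to 0.24 for miR-125a-3p, -0.62 to 0.17 for miR-125a-5p, -0.59 to 0.063 for miR-99b, -3.04 to 4.83 for rno-miR-125b*, -0.075 to 0.36 for miR-125b*, -0.051 to 0.13 for miR-125a-3p relative to miR-125a-5p and -0.032 to 0.23 for miR-125a-5p relative to miR-99b. The difference between the cytokine effects on miR-125b-5p ran from -0.13 to 0.39.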
